A study of Mus musculus with 6 samples.

Results

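Pf4 encodes platelet factor 4 (CXCL4), a chemokine that is widely used as a marker of platelets and of the megakaryocytes that shed them. It was examined here beside 8 other genes of the same lineage, Ppbp, Gp9, Gp1ba, Gp1bb, Gp6, Clec1b, Treml1 and Tubb1, in myeloid cells of the pancreas. These 9 genes were chosen by symbol, with earlier results of the same libraries known, and Pf4 was selected on its difference between the PBS and WGP libraries. The levels and fold changes of the 9 genes are therefore given as a description. Counts of members called are given beside the share of all genes called in the main test. They are given without such a share for other settings, and nothing is read from them. All 9 were among the 21780 genes of the count table, 6 of them had at least 1 count in any library, and the same number passed the filter on low counts that left 14429 genes for testing.

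Pancreas cells of C57BL/6 mice that were CD45+CD11b+ by flow cytometry were sorted for the libraries. The control group received PBS by intraperitoneal injection (3 libraries), and the other group received 1 mg of WGP, whole β-glucan particles of yeast that are taken up by phagocytosis (3 libraries). Both groups were unmodified wild-type animals, 6 to 8 weeks old and of either sex, and their cells were collected on day 7. Each library came from a separate animal, all within the same experiment, and no sex is tied to a library.

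Platelets have no nucleus and carry RNA from the megakaryocyte. Their adhesion receptors are the GPIb-IX-V complex, built from Gp1ba, Gp1bb, Gp9 and Gp5, which binds von Willebrand factor, the collagen receptor Gp6, and CLEC-2 (Clec1b), which binds podoplanin. Their alpha granules hold Pf4 and pro-platelet basic protein (Ppbp) as the main chemokines, and transcripts of both genes are abundant in platelets. Treml1 is a receptor of the granule membrane that appears on the surface after activation, and Tubb1 is the beta-tubulin of the marginal band that gives the resting platelet its disc shape. In mice, Pf4 regulatory sequence is commonly used to drive Cre in megakaryocytes, and expression of Pf4 in some macrophages is also known.

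Pf4 and Ppbp are neighbours on chromosome 5 and are read in the same direction. In GRCm38 coordinates, Pf4 spans chr5:90772435-90773383 on the plus strand, with 3 exons, and Ppbp spans chr5:90768518-90770063, so that 2371 bases lie between the end of Ppbp and the start of Pf4. The 250 bases before each start site are shown for this adjacent pair because their levels differed so much, and for Gp1ba because its window held the most GATA matches of the 9 genes. The windows are RefSeq sequence of GRCm38.p6 on the plus strand, at chr5:90772185-90772434 (Pf4), chr5:90768268-90768517 (Ppbp) and chr11:70638872-70639121 (Gp1ba). Capitals mark matches, on either strand, to GATA motifs (AGATAA, the variant AGATAG, the variant TGATAA and the variant TGATAG) and to ETS motifs (AGGAAG and the variant CGGAAG), the binding motifs of 2 transcription factor families that act in megakaryocytes.
Pf4: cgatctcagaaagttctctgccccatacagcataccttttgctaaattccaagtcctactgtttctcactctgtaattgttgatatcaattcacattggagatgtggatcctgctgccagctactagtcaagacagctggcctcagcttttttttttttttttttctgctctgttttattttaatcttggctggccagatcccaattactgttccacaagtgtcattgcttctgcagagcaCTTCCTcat
Ppbp: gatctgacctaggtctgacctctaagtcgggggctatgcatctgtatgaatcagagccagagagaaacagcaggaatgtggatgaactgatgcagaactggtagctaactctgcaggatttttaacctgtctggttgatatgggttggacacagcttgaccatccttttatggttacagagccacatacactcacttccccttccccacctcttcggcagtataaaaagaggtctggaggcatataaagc
Gp1ba: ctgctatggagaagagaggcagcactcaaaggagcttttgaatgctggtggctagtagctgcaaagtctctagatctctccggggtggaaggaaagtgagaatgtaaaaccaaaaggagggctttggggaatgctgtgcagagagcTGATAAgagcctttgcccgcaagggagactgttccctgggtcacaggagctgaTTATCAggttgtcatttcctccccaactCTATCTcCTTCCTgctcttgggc
The Pf4 window held 1 ETS match, which starts 9 bases before the start site, and no GATA match. The Ppbp window held neither motif, and the Gp1ba window held 3 GATA matches and 1 ETS match. Of the 9 genes, 4 had a GATA match in this window and 5 had an ETS match, against 27.1% and 39.0% of 27025 promoters of the same length. The half-site of MAF factors (TGCTGA), which act in macrophages, was found in none of the 9 windows and in 15.8% of all promoters. Such matches describe the letters of the window and do not show binding.

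Pf4 was abundant in the PBS libraries and low in the WGP libraries, whereas each of the other 8 genes was at 5.06 CPM or less in every library. Levels are CPM, the counts scaled to a common library size after TMM normalization. Pf4 stood at 261, 380 and 450 CPM in PBS replicates 1 to 3, from 10025, 14809 and 18434 counts. In WGP replicates 1 to 3 it stood at 14.1, 9.72 and 15.6 CPM, from 519, 403 and 639 counts. The lowest PBS library was thus far above the highest WGP library, and the groups did not overlap. The mean was 364 ± 95.9 CPM in PBS and 13.1 ± 3.06 CPM in WGP (SD, n = 3 each), a 27.7-fold lower mean level, and the fitted log2 fold change was -4.79 (SE 0.27). As the cells were sequenced in bulk, fewer cells that express Pf4 and less Pf4 RNA per cell cannot be told apart.

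Ppbp, the closest companion of Pf4 both in the granule and on the chromosome, reached only 1.12, 2.52 and 2.03 CPM in PBS replicates 1 to 3. In WGP it was at 0.271 CPM in replicate 1 and had no counts in replicates 2 and 3. Its groups did not overlap either, with 224 counts summed over PBS and 10 over WGP, a 22.6-fold ratio of summed levels. That ratio rests on the 10 counts of WGP replicate 1, which are 0.542 times the count at which low genes of that library most often lay. The fitted log2 fold change of Ppbp was -4.34 with an SE of 2.32, so that its size was poorly determined. Pf4 counts outnumbered those of Ppbp by 233, 151 and 222 to 1 in PBS replicates 1 to 3 and by 51.9 to 1 in WGP replicate 1. In WGP replicates 2 and 3, 403 and 639 Pf4 counts stood against 0 of Ppbp. Over summed counts the ratio was 193 to 1 in PBS and 156 to 1 in WGP, the latter resting on the same 10 counts.

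The members of the GPIb-IX complex had no counts at all. Gp9, Gp1ba and Gp1bb were at 0 in each of the 6 libraries, where a count of 0 allows up to 3 counts, or between 0.0723 and 0.0814 CPM. This limit holds only if each read stands for its own molecule, which was not tested. Genes with few reads most often lay higher, at 0.501 to 1.08 CPM, so that the true limit may be higher too. For Gp1bb the 0 is not informative, because 92.9% of its exon bases are also exons of Sept5 and Gm49601 on the same strand, and reads there can be left uncounted as ambiguous. No base of the exons of Pf4, Ppbp, Gp9, Gp1ba, Gp6, Treml1 or Tubb1 is shared in this way, and of Clec1b 3.61% is. Intervals and limits of this kind cover counting error only.

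The receptors that bind collagen and podoplanin were detected at low levels, with no drop in WGP like that of Pf4. Gp6 was at 1.27 CPM in PBS replicate 1 and at 0 in PBS replicates 2 and 3, and it reached 1.52, 4.15 and 5.06 CPM in WGP replicates 1 to 3. Its highest PBS value and its lowest WGP value lay close together, at 49 counts in PBS replicate 1 and 56 in WGP replicate 1. The fitted log2 fold change was 3.07 (SE 1.90). Clec1b stood at 0.0780, 0 and 2.00 CPM in PBS replicates 1 to 3 and at 0.244, 0.989 and 1.32 CPM in WGP replicates 1 to 3. Its groups overlapped, and its log2 fold change of 0.29 had an SE of 2.28.

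The granule membrane receptor and the tubulin were seen only in WGP libraries, and in few of them. Treml1 had no counts in PBS or in WGP replicate 1, and 20 and 127 counts in WGP replicates 2 and 3, or 0.482 and 3.10 CPM. Its summed level was at least 48.6-fold higher in WGP at a floor of 3 counts over the PBS group, a bound that falls to 1.17-fold at a floor of 3 times the count at which low genes most often lay, and most of its counts came from WGP replicate 3. Tubb1 had 35 counts in WGP replicate 1, or 0.950 CPM, and none in any other library.

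**Figure D1:**
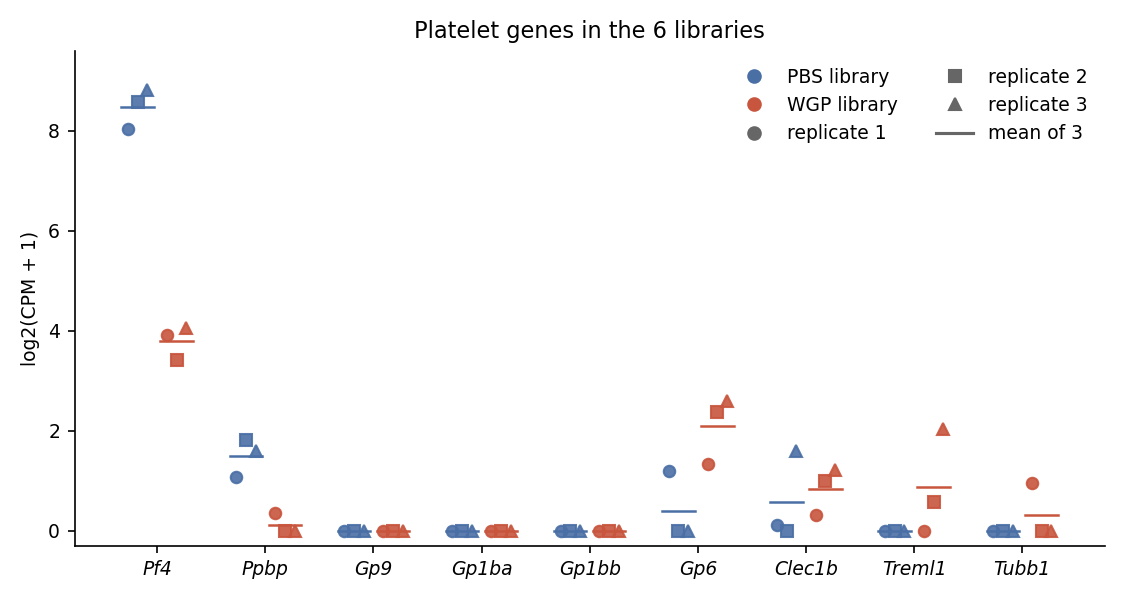
Level of each of the 9 platelet genes, as log2(CPM + 1), in the 3 PBS and 3 WGP libraries, with symbols for replicates and a bar at the mean of the 3 log2 values. Pf4 lies far above the other genes in PBS, drops in WGP, and the other 8 genes reach at most 5.06 CPM (Gp6 in WGP replicate 3).

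Counts of low genes were not spread evenly, and whether each read stands for its own molecule was not tested. Genes with few reads piled up at a most frequent low count, which was 41.5, 30.4 and 27.5 in PBS replicates 1 to 3 and 18.4, 31.6 and 29.1 in WGP replicates 1 to 3. The 43, 98 and 83 counts of Ppbp in PBS were 1.04, 3.22 and 3.02 times this value, and the 207 counts of Gp6 in WGP replicate 3 were 7.12 times it. The 10025 to 18434 counts of Pf4 in PBS were 242 to 670 times it, and its WGP counts were 12.8 to 28.1 times it.

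Within each library, Pf4 made up nearly all counts of the 9 genes in PBS and a smaller share in WGP. Its share was 99.1%, 99.3% and 99.1% in PBS replicates 1 to 3, and 82.5%, 63.4% and 62.2% in WGP replicates 1 to 3. Over the summed counts it was 99.2% (95% exact binomial interval 99.1 to 99.3) in PBS and 68.1% (66.2 to 70.0) in WGP. These intervals cover counting error and leave out the spread between animals, and the share of no WGP library lay within the WGP interval. The lowest PBS share was above the highest WGP share. A lower share in WGP follows from the fall on which Pf4 was chosen, and nothing further is read from it. Meanwhile the other 8 genes together stood at 2.47, 2.52 and 4.03 CPM in PBS and at 2.99, 5.62 and 9.48 CPM in WGP, and these ranges overlapped.

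Compared per kilobase of exon, Pf4 was again on another scale than the rest. Its level per length was 505 ± 133 CPM per kb in PBS (SD, n = 3), rank 56 among the 14429 tested genes, and 18.2 ± 4.24 CPM per kb in WGP, rank 2659. In PBS, Ppbp followed at 1.74 ± 0.655 CPM per kb, Clec1b at 0.136 ± 0.222 and Gp6 at 0.0720 ± 0.125, and the last pair did not differ beyond their spread. Pf4 was 290-fold above Ppbp per length in PBS. In WGP the order below Pf4 was Treml1 at 0.852 ± 1.19 CPM per kb, Gp6 at 0.606 ± 0.311, Tubb1 at 0.225 ± 0.390, Clec1b at 0.167 ± 0.108 and Ppbp at 0.0835 ± 0.145, and no neighbours among these 5 differed beyond their spread.

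A gene was called when its Benjamini-Hochberg adjusted p in edgeR's quasi-likelihood test was at most 0.05 and its log2 fold change at least 1 in size. Of the 9 platelet genes 6 were tested. Of these, 1 was called lower (Pf4), where 4.96% of all tested genes were, and 0 were called higher, where 4.53% were. At an unadjusted p under 0.05, 1 member was higher. DESeq2 called 1 member higher (Treml1) and limma-voom 0. The share of all genes is not given for the unadjusted p or for these other tools. Pf4 and Ppbp were the 2 members whose highest WGP value was under their lowest PBS value, which held for 16.1% of tested genes. Since the same contrast was used to choose Pf4, nothing is read from these counts.

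To see whether Pf4 moved with platelet genes at large, lists of platelet surface, granule, signalling and cytoskeletal genes and of megakaryocyte transcription factors were set beside it, 67 genes in all. Of these, 65 were tested, and their median log2 fold change was 0.12, against -0.05 over all tested genes. Of the 65, 7 were called lower and 3 higher, where 4.96% and 4.53% of all tested genes were. The 10 called genes were Cd36, P2ry12, F13a1, Rgs18, Rasgrp2, Ptgs1 and Mef2c, which fell, and Thbs1, Lcp2 and Vasp, which rose. Several of them are genes that macrophages or monocytes also express, such as the scavenger receptor Cd36 and the transglutaminase F13a1, so that the lists are not specific to platelets.

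Among 19 surface genes, 2 were called lower and 0 higher (0 higher at an unadjusted p under 0.05, and 0 with DESeq2 or limma-voom), with a median log2 fold change of -0.20 over the 17 tested. Cd36, a scavenger receptor for lipids and thrombospondin, fell from 825 ± 303 CPM to 157 ± 76.3 CPM (log2 fold change -2.39, SE 0.36, adjusted p = 0.0015). P2ry12, the ADP receptor that clopidogrel blocks, fell from 94.0 ± 31.7 to 17.5 ± 3.92 CPM (log2 fold change -2.42, SE 0.28, adjusted p = 0.00031). The tetraspanin Cd9 stood at 111 ± 37.7 CPM in PBS and 149 ± 11.3 CPM in WGP and was not called. Further surface genes are named after their values were seen. Itga2b, the integrin subunit CD41, lay between 1.08 and 1.59 CPM in all 6 libraries, and the GPIb-IX-V subunit Gp5 had no counts. Itgb3, the partner of Itga2b, stood at 6.83 ± 3.72 CPM in PBS and 8.86 ± 3.17 CPM in WGP, and P-selectin (Selp) at 3.04 ± 1.82 and 9.37 ± 9.76 CPM, and neither was called.

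Of 14 granule genes, 1 was called lower and 1 higher, where 4.96% and 4.53% of all tested genes were. Their median was 0.25, and DESeq2 called 3 higher. The added genes were von Willebrand factor (Vwf, log2 fold change 1.25, SE 0.42, adjusted p = 0.082 in edgeR) and coagulation factor V (F5, 1.11, SE 0.35, adjusted p = 0.065), both named after their values were seen. F5 was also called higher without PBS replicate 1, without WGP replicate 2 and with counts divided by the most frequent low count. Other granule genes, likewise named after their values were seen, were called lower under some alternatives. Pdgfb (log2 fold change -0.92, SE 0.21, adjusted p = 0.016) was called lower with library totals only, without PBS replicate 1 and without WGP replicate 3. Clu and Sparc were called lower without WGP replicate 2. F13a1, the A subunit of clotting factor XIII, fell from 2513 ± 1085 to 424 ± 78.0 CPM (log2 fold change -2.57, SE 0.32, adjusted p = 0.00041). Thrombospondin 1 (Thbs1) rose from 265 ± 25.7 to 2080 ± 1340 CPM (log2 fold change 2.97, SE 0.38, adjusted p = 0.00053). Its WGP values were 3619, 1173 and 1447 CPM in replicates 1 to 3, so that replicate 1 raised the mean. Serglycin (Srgn), the granule proteoglycan to which Pf4 binds, and Tgfb1 were not called, with log2 fold changes of 0.52 (SE 0.17) and 0.06 (SE 0.15).

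Signalling genes went both ways. Of 18, 3 were called lower and 2 higher, with a median of 0.18. The cyclooxygenase Ptgs1 changed by a log2 fold change of -1.49 (SE 0.20, adjusted p = 0.00080), the G protein regulator Rgs18 by -1.32 (SE 0.31, adjusted p = 0.017) and the Rap1 exchange factor Rasgrp2 by -1.12 (SE 0.26, adjusted p = 0.016). The adaptor Lcp2 (SLP-76) rose by 1.29 (SE 0.16, adjusted p = 0.00053) and the actin regulator Vasp by 1.22 (SE 0.22, adjusted p = 0.0040), both on the log2 scale. Talin (Tln1), the kinase Syk and the small GTPase Rap1b were not called, at log2 fold changes of 0.18 (SE 0.16), 0.15 (SE 0.16) and -0.50 (SE 0.18). The call of Rasgrp2 was lost without PBS replicate 1 or without WGP replicate 2, and that of Rgs18 without PBS replicate 3 or without WGP replicate 3.

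Of 10 megakaryocyte transcription factors, 1 was called lower and 0 higher (0 higher at an unadjusted p under 0.05, and 0 by the other tools), with a median of -0.46. Mef2c, which also acts in myeloid cells, fell from 284 ± 28.0 to 54.0 ± 9.03 CPM (log2 fold change -2.39, SE 0.17, adjusted p = 1.9e-05). Lyl1 (log2 fold change -0.58, SE 0.17, adjusted p = 0.042) and Runx1 (-0.34, SE 0.16) were not called. Gata1, the factor that defines the megakaryocyte and erythroid lineages, is named after its values were seen and had 1.30, 0 and 0 CPM in PBS and 1.52, 0.892 and 1.69 CPM in WGP. Tal1, a factor of the same lineages that is likewise named after its values were seen, stood at 11.9, 8.16 and 10.1 CPM in PBS and at 3.83, 0 and 0.562 CPM in WGP, with no overlap (log2 fold change -2.78, SE 1.27, adjusted p = 0.20). It was not called here, but it was called lower by limma-voom, without WGP replicate 1 and with counts divided by the most frequent low count. Of the 6 cytoskeletal genes 0 were called, also with DESeq2 and limma-voom, and 1 had an unadjusted p under 0.05, Diaph1, with a log2 fold change of 0.62 (SE 0.13, adjusted p = 0.0093). Filamin A (Flna) and Myh9 were at 0.16 (SE 0.14) and 0.13 (SE 0.15).

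Resident macrophage genes were set beside Pf4 as well. Of 24 such genes, 21 were called lower and 0 higher (0 higher at an unadjusted p under 0.05, and 0 by the other tools), with a median log2 fold change of -2.60, and in 22 all WGP values were under all PBS values. The largest falls were those of Vsig4, a complement receptor (log2 fold change -5.44, SE 0.95, adjusted p = 0.0035), the hyaluronan receptor Lyve1 (-4.66, SE 0.53, adjusted p = 0.00027), the lectin Cd209f (-4.60, SE 0.40, adjusted p = 5.4e-05) and the haemoglobin scavenger receptor Cd163 (-4.50, SE 0.47, adjusted p = 0.00015). Pf4 lay within the range of this list, since 1 of the 24 genes had a larger fall. This was Vsig4, at 0, 1.69 and 1.83 CPM in WGP replicates 1 to 3. Of the 65 tested genes of the other platelet lists, 3 also had a larger fitted fall. These were Alox12 and Mpig6b, with counts only in PBS replicate 1, and F2rl3, with counts only in PBS replicate 2. F13a1 stands in this list and in the granule list. The list was written with the fall of many of its genes known, and it is not independent evidence of their direction. The call of Vsig4 was lost with limma-voom.

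Genes of Ly6C-high monocytes went the other way, with 6 of 8 called higher and 0 lower (0 lower at an unadjusted p under 0.05, and 0 by the other tools), and a median log2 fold change of 2.04. The largest rises were those of F10 (log2 fold change 4.11, SE 0.37, adjusted p = 6.0e-05), Vcan (3.89, SE 0.30, adjusted p = 2.6e-05), Ly6c2 (2.85, SE 0.46, adjusted p = 0.0022) and Plac8 (2.09, SE 0.39, adjusted p = 0.0050).

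**Figure D2:**
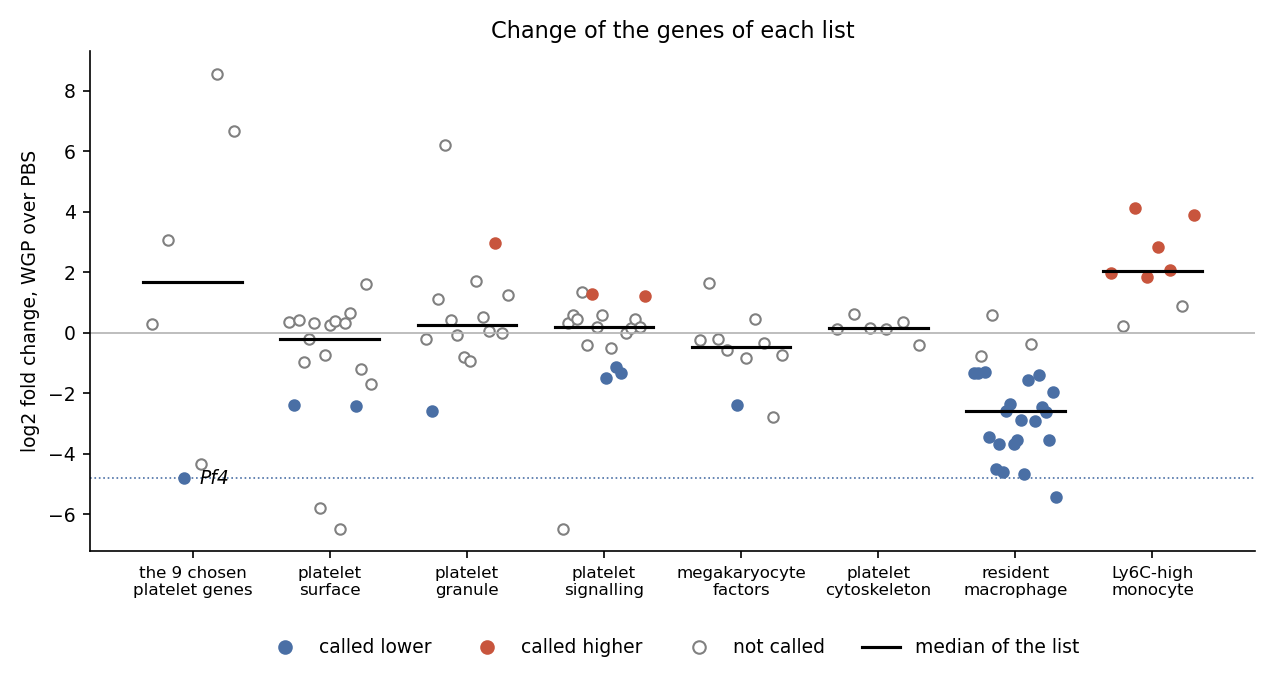
Log2 fold change, WGP over PBS, of each tested gene of 8 lists, with filled points for called genes, open points for others, a bar at the median of each list and a dotted line at the value of Pf4 (-4.79). The medians of the 5 other platelet lists lie between -0.46 and 0.25, that of the 6 tested members at 1.68 and that of the resident macrophage list at -2.60, and many of the open points farthest from 0 are genes with very few counts.

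Differences among the PBS libraries were also described, since the fold change does not set them. Pf4 was lowest in PBS replicate 1 and highest in PBS replicate 3, with a ratio of 1.73 between them. This arrangement was shared by 23 of the 24 resident macrophage genes, whose median ratio was 2.11, by 10 of the 65 tested genes of the other platelet lists, and by 20.2% of all tested genes. Other markers ran the opposite way in PBS replicates 1 to 3, with sums of 6117, 3309 and 2015 CPM for the neutrophil list and 1361, 974 and 766 CPM for the Ly6C-high monocyte list, and their part in this pattern was not tested. Among the resident macrophage genes, which had the order of Pf4, Lyve1 stood at 520, 968 and 1687 CPM in PBS replicates 1 to 3, and Cd163 at 602, 1320 and 1990 CPM. Among the WGP libraries Pf4 was lowest in replicate 2, as F13a1 was at 347 CPM, whereas Lyve1 was highest there at 72.0 CPM. Of the 24 resident macrophage genes 2 (F13a1 and Trf) were lowest in WGP replicate 2 and 18 were highest there, so that within WGP most of them differed from Pf4. Of the 65 tested genes of the other platelet lists, 25 were lowest in WGP replicate 2 and 19 were highest there. The share of all genes is not given for this order.

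The genes most like Pf4 were found by the root mean square difference (RMS) between profiles of log2(CPM + 1) over the 6 libraries, each centred on its own mean, among 14428 genes. The nearest was Slco2b1, an organic anion transporter, at an RMS of 0.25, with 261, 550 and 512 CPM in PBS and 20.4, 16.4 and 16.7 CPM in WGP. Pla2g2d, a secreted phospholipase (RMS 0.29), and Tmod1, a cap of actin filaments (RMS 0.33), came next, with log2 fold changes of -5.30 (SE 0.39) and -5.37 (SE 0.40). The other genes among the nearest 10 were Chp2, Tcim, Sema6d, Hrh1, Iqcn, Tln2 and Zbtb10, with an RMS of 0.40 to 0.51, and the median over all genes compared was 2.36. None of the 10 was on any of the lists above. With the 2 groups so far apart, the measure mostly follows the size of the fall.

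In the same ranking Cd163 came 19th, Cd209f 20th, Vsig4 22nd, Folr2 30th and Lyve1 31st. F13a1 was the nearest gene of the other platelet lists, at rank 119, followed by Mef2c at rank 146 and P2ry12 at rank 154. Ppbp was at rank 593, with an RMS of 1.66, Clec1b at rank 10716, Tubb1 at rank 10731, Treml1 at rank 13355 and Gp6 at rank 14153. With a pseudocount of 1 CPM these low genes could not have come near Pf4, since Ppbp could fall by at most 1.498 on this scale from its PBS mean, whereas Pf4 fell by 4.68. Their low level thus limits how near they can come, and their ranks do not measure the size of their fold.

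**Figure D3:**
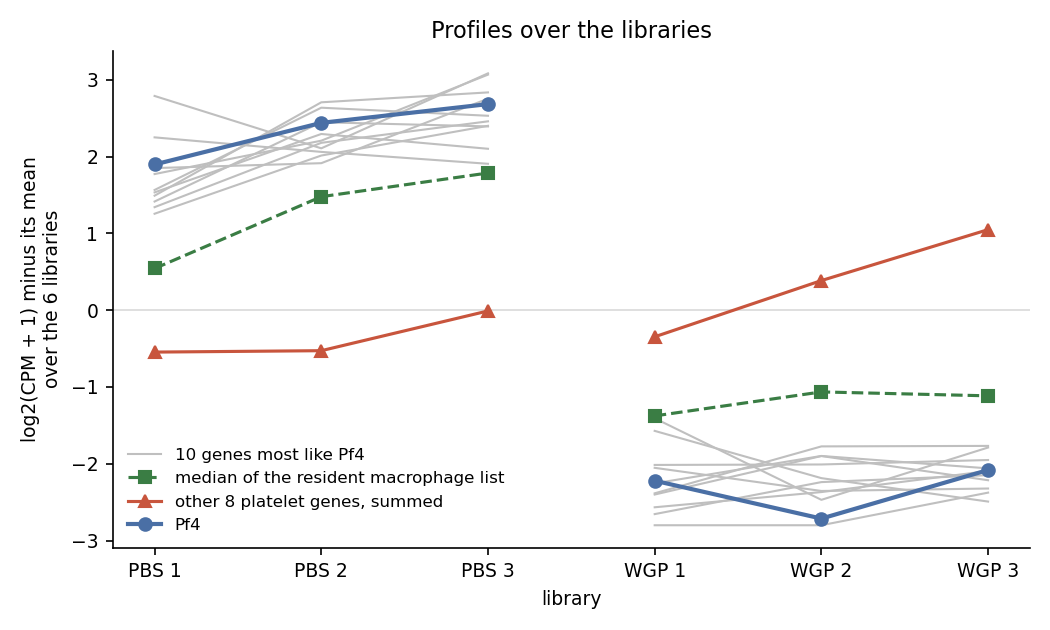
Profiles over the 6 libraries, as log2(CPM + 1) minus the mean of each profile, of Pf4, of the 10 genes most like it, of the 24 resident macrophage genes (median) and of the other 8 platelet genes (summed). Lines only help to follow a profile within a group, since replicates have no order. The summed genes, at 2.47 to 4.03 CPM in PBS, could not fall as far as Pf4 on this scale, and Gp6 was the highest of them in each WGP library, while Ppbp was lower in WGP than in PBS.

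Pf4 sits in a cluster of CXC chemokine genes on chromosome 5. Its own difference was used to choose it, and the values of its neighbours are given beside it without a comparison. Cxcl2, a neutrophil attractant made by activated macrophages, was at 563, 725 and 939 CPM in PBS and at 639, 503 and 517 CPM in WGP (log2 fold change -0.42, SE 0.20, not called). Cxcl1, a related attractant, was at 26.1, 57.3 and 78.7 CPM in PBS and at 18.1, 27.2 and 3.91 CPM in WGP (log2 fold change -1.72, SE 0.59, adjusted p = 0.087). It was called lower by DESeq2 and without PBS replicate 1 or WGP replicate 2, and with counts divided by the most frequent low count. Cxcl3 was between 1.13 and 9.96 CPM, Cxcl5 had counts only in WGP replicate 2 (1.06 CPM), and Cxcl15 had none.

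**Figure D4:**
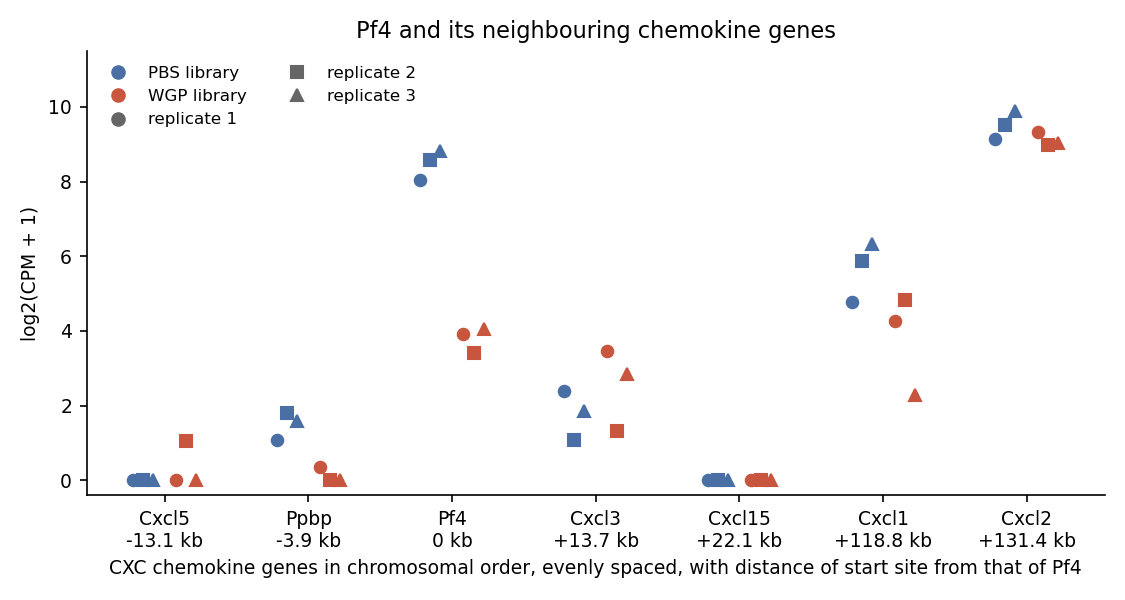
Levels, as log2(CPM + 1), of the 7 CXC chemokine genes around Pf4 in the 6 libraries, in chromosomal order with the distance of each start site from that of Pf4. Pf4 separates into a high PBS and a low WGP group, Ppbp beside it stays low, and Cxcl2 is high in both groups.

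Receptors and partners of these products were also measured. Cxcr2, the receptor of Ppbp-derived chemokines on neutrophils, rose from 42.7 ± 13.1 to 105 ± 2.43 CPM (log2 fold change 1.30, SE 0.22, adjusted p = 0.0032). Podoplanin (Pdpn), the ligand of CLEC-2, rose from 1.08 ± 0.379 to 9.02 ± 5.80 CPM (log2 fold change 3.06, SE 0.70, adjusted p = 0.014). The call of Pdpn was lost with limma-voom, without PBS replicate 2 and without WGP replicate 2. Ccr1 (log2 fold change 0.64, SE 0.18, adjusted p = 0.038), the proteoglycan Sdc4 (0.75, SE 0.24, adjusted p = 0.063) and Cxcr3 (-0.91, SE 0.48, adjusted p = 0.27) were not called.

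The libraries held 35334645 to 43341834 counts each. The labelled identity of the cells was borne by Ptprc (CD45), at 985 ± 50.1 CPM in PBS and 1610 ± 119 CPM in WGP, and by Itgam (CD11b), at 228 ± 34.3 and 395 ± 20.3 CPM, and the 8 myeloid genes summed to 10232 to 16385 CPM in PBS and 23026 to 24447 CPM in WGP, with Lyz2 the highest. Markers of other cells moved among the libraries and their part in the level of Pf4 was not tested. The 10 neutrophil genes, led by S100a9, summed to 2015 to 6117 CPM in PBS, highest in replicate 1, and to 1829 to 2258 CPM in WGP. The 9 measured acinar genes, led by Pnlip in PBS and Ctrb1 in WGP, summed to 1420 to 5140 CPM in PBS and 358 to 591 CPM in WGP, and all 9 were called lower. The erythroid list, led by Hbb-bs, summed to 116 to 141 CPM in PBS and 32.9 to 209 CPM in WGP, with Klf1 at 0. In the neutrophil, erythroid and endothelial lists, apart from Cxcr2, Epor (log2 fold change -3.55, SE 0.49, adjusted p = 0.00085) and Mmp9 (-1.41, SE 0.23, adjusted p = 0.0025) were called lower and Kdr (2.52, SE 0.52, adjusted p = 0.0084) was called higher. Endothelial genes (Eng highest) summed to 130 to 185 CPM in PBS and 134 to 188 CPM in WGP, eosinophil genes (Il5ra highest in PBS and Ccr3 in WGP) to at most 82.5 and 62.3 CPM, and mast cell and basophil genes (Mcpt8 highest in PBS and Cma1 in WGP) to 0.709 to 13.8 and 0 to 1.41 CPM, with Cpa3 and Mcpt4 at 0. Without PBS replicate 1, which had the highest neutrophil sum, the log2 fold change of Pf4 was -4.98, and Gp6 was called higher.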

How the data were processed

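CD45+CD11b+ pancreas cells of 3 PBS and 3 WGP mice were profiled by polyA RNA sequencing of single-end reads. The authors aligned the reads to mm10 with STAR 2.6 and deposited raw counts per Ensembl gene from HTSeq 0.10.0, unnormalized. The annotation release, strand setting and treatment of duplicates are not given in the sources used here. Symbols came from GENCODE vM21 (21754 of 21780 identifiers matched) and promoters from RefSeq. Tested were 14429 protein-coding genes whose RLE-normalized counts reached 10 when summed, with edgeR 4.0.16 (TMM, quasi-likelihood, WGP against PBS, Benjamini-Hochberg) in R 4.3.3, after a check on simulated data. The SE is the log2 fold change over the square root of F. Levels per length used the union of exons. Members, lists and tests were chosen with earlier results of these data known. Named are all members, locus neighbours and receptors, called genes and the 3 highest of each platelet list in PBS, the 10 genes most like Pf4, and the 4 largest changes of the macrophage and monocyte lists. Alternatives were RLE size factors, library totals, DESeq2 1.42.0, limma-voom 3.58.1, other filters, a replicate block, leaving out each library, longest transcripts and a pseudocount of 0.1 in place of 1. Some results are not reported here. Counts divided by the most frequent low count, and leaving out libraries for shares, levels and likeness, were added after seeing the data.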

Additional observations from a re-analysis of the deposited data

How the results depend on the processing

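The log2 fold change of Pf4 stayed between -4.98 and -4.61 over 14 alternatives (a description, since Pf4 was chosen on this contrast). With limma-voom the members called lower were 2, as Ppbp was added. Members called higher were 1 with DESeq2 (Treml1) and 0 to 1 with a library left out, where Gp6 was added without PBS replicate 1. The other platelet genes called lower numbered 6 to 8, and those called higher 3 to 5, with 5 under DESeq2. The share of Pf4 in PBS was 99.4% without Clec1b and Gp1bb, and 99.1% to 99.2% without a PBS library. The ratio of Pf4 to Ppbp per length in PBS was 265 to 355 over 4 alternatives. Of the 10 genes most like Pf4, 4 were kept with a pseudocount of 0.1 and 3 to 10 with a library left out, the fewest without WGP replicate 2. Ppbp had log2 fold changes from -9.25 to -2.72, Gp6 from 2.48 to 10.2, Clec1b from -0.29 to 4.34, Treml1 from 3.76 to 9.17 and Tubb1 from 2.00 to 7.23, and the cause was not tested. Treml1 and Tubb1 could not be fitted under filterByExpr, nor Tubb1 without WGP replicate 1. Pf4, with the replicate block, had a log2 fold change of -4.78, 1 member was called, 7 other platelet genes were called lower and 4 higher (F5 added), and the call of Pdpn was lost. Deviations of libraries with the same number had correlations of 0.036, -0.066 and 0.055, and not every library correlated best with its own number, so the numbers name libraries and do not pair them. At this depth 3 counts were 0.0723 to 0.0814 CPM, whereas the most frequent low count was 0.501 to 1.08 CPM.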
